A study of Mus musculus with 2 samples.

Results

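Transcript levels are described here for 10 genes known as markers of resident macrophages of mouse bone marrow. They are Timd4, Mertk, Mrc1, Cd163, Siglec1, Vcam1, the complement genes C1qa, C1qb and C1qc, and Spic. The genes were matched by Ensembl identifier, and all 10 were found among the 45318 genes of the deposited count table. They were measured in GFP-positive leukaemia cells with the MLL/AF9 fusion, sorted from the marrow of C57Bl/6 mice that had received brequinar or vehicle. Brequinar inhibits dihydroorotate dehydrogenase, an enzyme of pyrimidine synthesis. Each treatment has 1 poly(A)-selected RNA library, so every difference below compares 1 library with 1 library, without replicates and without a p-value. Neither the dose and timing nor the number of mice behind a library is given in the sources used here.

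Resident marrow macrophages engulf dying cells and the expelled nuclei of red cell precursors, recycle haem iron, and hold blood progenitors and erythroblasts in place. TIM-4 (Timd4) and MerTK (Mertk) recognise dying cells, CD163 takes up haemoglobin, the mannose receptor (Mrc1) and CD169 (Siglec1) bind sugars, and VCAM-1 (Vcam1) binds integrins on blood cells. C1q, the first component of complement, is made largely by macrophages, and the ETS-family factor Spi-C (Spic) is needed for macrophages that recycle red cells. The 10 genes were chosen by their known roles, with the levels and brequinar-to-vehicle ratios of these same libraries already in view, so their values are given as a description and support nothing.

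Of these genes, 9 were scarce in both libraries and 4.76- to 15.4-fold higher in the brequinar library, while Vcam1 was abundant in both and differed by 1.34-fold. The 9 scarce genes lay between 1.08 and 10.01 CPM in the brequinar library and between 0.121 and 1.39 CPM in the vehicle library, where CPM are counts per 1000000 after scaling by TMM (trimmed mean of M-values). Gene counts summed to 47950714 in the brequinar library and 47935476 in the vehicle library. A single count was worth 0.0215 and 0.0202 CPM in these libraries. Each interval below is an exact 95% one for the counting error alone, and since amplified reads carry no molecular identifiers even this can be too narrow. The leukaemia factors Hoxa9 (231 CPM with brequinar, 238 CPM with vehicle) and Meis1 (87.4 and 71.6 CPM in the same order) were abundant in both. In bulk RNA from sorted cells, fewer cells of a type and less RNA per cell cannot be told apart.

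**Figure D1:**
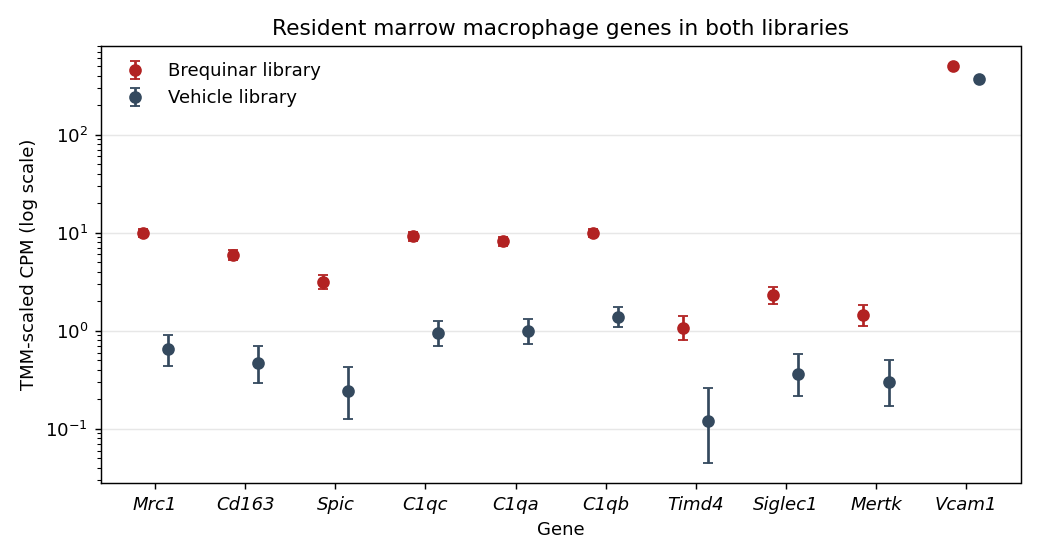
Level of each resident marrow macrophage gene in the brequinar library (red) and the vehicle library (dark), in TMM-scaled CPM on a log axis, with exact 95% counting intervals. Vcam1 lies near 496 and 370 CPM, and the other 9 genes lie at or below 10.01 CPM, each with intervals that do not overlap between the libraries.

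The upstream sequences of members that differed in the same direction are shown for the PU box, the core letters GAGGAA that ETS factors of the PU.1 type, Spi-C among them, can bind. RefSeq windows (GRCm38.p6) of 250 bases before the RefSeq gene start were matched for 7 members, namely C1qb, C1qc, Cd163, Mertk, Mrc1, Spic and Timd4. The search also covered the composite element of an ETS core followed by an IRF core, and both strands were read for each motif. The motifs do not overlap in any printed stretch, and they were chosen after these sequences had been read. GAGGAA lay in the windows of 3 of the 7 members, C1qb, C1qc and Mrc1, against 23.3% of 32851 RefSeq windows of that length. The composite element lay in 1 of the 7, Timd4, against 2.30% of all windows. Capitals mark the matches, and TTCCTC is GAGGAA read on the other strand. The stretches of C1qc and Mrc1 are cut where an annotated GENCODE transcript begins, and each is printed 5′ to 3′ on the gene's own strand.
C1qb: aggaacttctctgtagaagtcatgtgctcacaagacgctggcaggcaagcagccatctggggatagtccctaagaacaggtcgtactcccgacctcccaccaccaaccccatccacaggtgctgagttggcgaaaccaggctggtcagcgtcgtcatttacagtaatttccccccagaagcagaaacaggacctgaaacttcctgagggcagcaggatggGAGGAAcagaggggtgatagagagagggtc
C1qc: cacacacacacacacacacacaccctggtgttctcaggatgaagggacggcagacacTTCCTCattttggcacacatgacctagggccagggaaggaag
Mrc1: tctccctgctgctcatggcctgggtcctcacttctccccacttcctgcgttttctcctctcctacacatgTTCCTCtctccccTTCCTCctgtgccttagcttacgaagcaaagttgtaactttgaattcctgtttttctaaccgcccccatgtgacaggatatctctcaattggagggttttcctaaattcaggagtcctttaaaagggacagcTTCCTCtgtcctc
Timd4: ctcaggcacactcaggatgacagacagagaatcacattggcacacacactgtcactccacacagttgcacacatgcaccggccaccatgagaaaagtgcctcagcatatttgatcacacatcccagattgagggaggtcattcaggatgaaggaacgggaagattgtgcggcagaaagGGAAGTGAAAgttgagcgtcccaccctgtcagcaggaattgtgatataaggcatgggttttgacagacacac
These are chr4:136886201-136886450 (minus strand), chr4:136893066-136893164 (minus strand), chr2:14229164-14229391 (plus strand) and chr11:46810549-46810798 (plus strand). The C1qb match begins 30 bases before the RefSeq gene start and the C1qc match 193 bases before it. The 3 Mrc1 matches begin 180, 167 and 35 bases before it, and the Timd4 match 72 bases. These RefSeq starts are where the full windows of 250 bases end, not the GENCODE positions given for the genes below. The cut stretches of C1qc and Mrc1 end short of them. A match is a run of letters and says nothing of binding in these cells.

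Among the receptors for dying cells, Timd4 (ENSMUSG00000055546.6, chr11:46810800-46844332, plus strand, GRCm38) had 50 counts, 1.08 CPM, in the brequinar library and 6 counts, 0.121 CPM, in the vehicle library. It was 8.88-fold higher with brequinar (interval 3.80 to 25.3), and its wide interval reflects the 6 vehicle counts. Mertk (ENSMUSG00000014361.5, chr2:128698956-128802894, plus strand), a receptor kinase that binds dying cells through Gas6 and protein S, had 67 counts, 1.44 CPM, in the brequinar library and 15 counts, 0.303 CPM, in the vehicle library. Its ratio of 4.76-fold (interval 2.69 to 8.97) was the lowest of the 9 scarce genes. Both genes averaged under 1 CPM over the libraries (0.599 CPM for Timd4 and 0.873 CPM for Mertk), so neither entered counts of genes that use that filter.

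Of the scavenger and lectin receptors, Mrc1 had the highest ratio of the 10 genes and Siglec1 the second lowest of the 9 scarce ones. Mrc1 (ENSMUSG00000026712.3, chr2:14229392-14332057, plus strand) had 464 counts, 9.99 CPM, in the brequinar library and 32 counts, 0.647 CPM, in the vehicle library. That is 15.4-fold higher (interval 10.8 to 22.8), rank 30 from the top among the 11504 genes that averaged 1 CPM or more. Cd163 (ENSMUSG00000008845.6, chr6:124304656-124330527, plus strand) had 276 counts, 5.94 CPM, in the brequinar library and 23 counts, 0.465 CPM, in the vehicle library, 12.8-fold higher (interval 8.35 to 20.5). Siglec1 (ENSMUSG00000027322.8, chr2:131069220-131086765, minus strand), the lectin that macrophages use to hold sialylated cells, had 107 counts, 2.30 CPM, with brequinar and 18 counts, 0.364 CPM, with vehicle, 6.33-fold higher (interval 3.82 to 11.1). The intervals of Mrc1 and Mertk did not overlap, whereas that of Siglec1 overlapped both Mertk and Cd163. Mrc1, Cd163 and Siglec1 thus differed in the same direction as the dying-cell receptors. Among these 5 receptors only the intervals of Mrc1 and Mertk lay apart. Overlap of 2 intervals does not show that the ratios are equal, and no ratio was tested against another.

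Vcam1 (ENSMUSG00000027962.11, chr3:116109949-116129688, minus strand) behaved unlike the rest. It had 23044 counts, 496 CPM, in the brequinar library and 18288 counts, 370 CPM, in the vehicle library, a 1.34-fold difference (interval 1.32 to 1.37). Its log2 ratio was 0.42, and 0.33 with scaling by total counts, the smallest of the 10 under both. Vcam1 made up 90.6% of the summed CPM of the 10 genes in the brequinar library and 98.5% in the vehicle library, in CPM that are not scaled for length. The sum over all 10 was 547 CPM with brequinar and 375 CPM with vehicle, and over the 9 others it was 51.2 and 5.48 CPM in the same order, a ratio of 9.35. A sum of CPM over the list, without length scaling, is therefore mostly the level of Vcam1. Its exons overlap those of Gm43109 on the opposite strand by 61 bases, and that gene had 12 counts with brequinar and 8 with vehicle.

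The C1q chains come from 3 genes side by side on chromosome 4, all on the minus strand. C1qa (ENSMUSG00000036887.5, chr4:136895917-136898803) had 379 counts, 8.16 CPM, in the brequinar library and 49 counts, 0.990 CPM, in the vehicle library, 8.24-fold higher (interval 6.11 to 11.3). C1qb (ENSMUSG00000036905.8, chr4:136880129-136886187) had 465 counts, 10.01 CPM, in the brequinar library and 69 counts, 1.39 CPM, in the vehicle library, 7.18-fold higher (interval 5.56 to 9.38). C1qc (ENSMUSG00000036896.5, chr4:136889804-136893065) had 425 counts, 9.15 CPM, in the brequinar library and 47 counts, 0.950 CPM, in the vehicle library, 9.63-fold higher (interval 7.12 to 13.3). All 3 were higher with brequinar, and their intervals overlap one another. The C1q protein holds its chains in equal number, so the proportion of their transcripts within a library was also described. After division by exon length, C1qa made 36.0% of the C1q level in the brequinar library (interval 33.2 to 38.9) and 34.9% in the vehicle library (27.3 to 43.0). C1qb made 42.2% with brequinar (39.4 to 45.1) and 47.0% with vehicle (39.1 to 55.0), and C1qc 21.8% with brequinar (19.8 to 23.8) and 18.0% with vehicle (13.3 to 23.7). The shares of each chain overlapped between the libraries within counting error, although the summed count was 1269 in one and 165 in the other. The low share of C1qc depends on the length used, since its merged exons span 1931 bases and its longest transcript 1203. With the longest transcript its share was 30.9% in the brequinar library and 26.1% in the vehicle library.

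**Figure D2:**
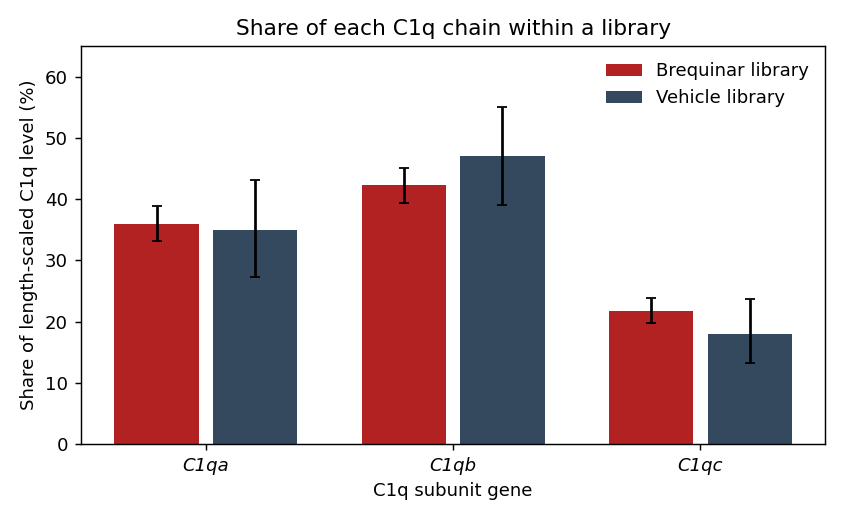
Share of each C1q chain in the length-scaled C1q level of a library, in percent, for the brequinar library (red, left bar) and the vehicle library (dark, right bar), with exact 95% counting intervals. For each chain the intervals of both libraries overlap, with C1qb at 42.2% and 47.0%.

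Of the genes beside the C1q cluster, 1 had enough counts to compare. In a window of 100000 bases on each side, chosen after the values were seen, the table holds 3 other genes. Zbtb40, a zinc-finger gene, stood at 24.0 CPM with brequinar and 30.5 CPM with vehicle, within 2-fold. The ephrin receptor genes Ephb2 (10 counts with brequinar, 2 with vehicle) and Epha8 (1 and 0 counts in the same order) were too scarce to compare.

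Spic (ENSMUSG00000004359.13, chr10:88674772-88685015, minus strand), the transcription factor of the list, had 146 counts, 3.14 CPM, in the brequinar library and 12 counts, 0.243 CPM, in the vehicle library. It was 12.96-fold higher (interval 7.20 to 25.7), with a rank of 48 from the top. Spi1, which encodes the related factor PU.1 of all myeloid cells, stood at 392 CPM with brequinar and 287 CPM with vehicle, within 2-fold.

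When a mean of 1 CPM or more was required, 8 of the 10 members entered, and 7 of them were at least 2-fold higher on a log2 scale with 2 counts added to each library, against 6.45% of all 11504 genes. None was lower, against 4.40% of all genes, and Vcam1 alone lay within 2-fold. In the same 7 the whole counting interval lay above 2-fold, against 5.22% of the 11504 genes above and 2.50% below it. Without the filter 9 of 10 were at least 2-fold higher, against 11.6% of 21287 genes with a count higher and 9.74% lower. In those 9 the whole counting interval lay above 2-fold, against 4.14% of the 21287 genes above and 2.62% below it. Since the members were listed with this contrast known, these counts only restate how they were chosen. The median log2 ratio was 3.10 over the 8 members that passed and 2.90 over all 10, beside 0.000288 over all genes tested.

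**Figure D3:**
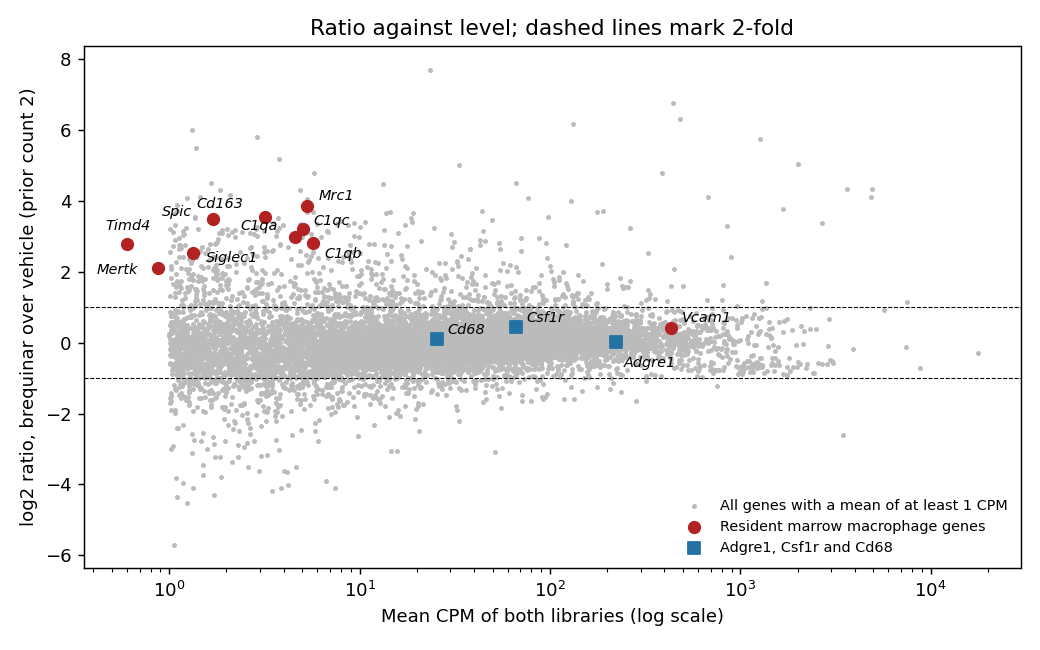
Log2 ratio of brequinar over vehicle against mean CPM of both libraries (log axis) for each gene that averaged 1 CPM or more (grey), for the 10 resident marrow macrophage genes whatever their level (red) and for Adgre1, Csf1r and Cd68 (blue squares). The dashed lines mark 2-fold, and Vcam1 is the single red point between them.

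Levels of different genes can be set against one another only per length of transcript, here CPM per kilobase of merged exons. On this scale Vcam1 led in both libraries, with 55.9 in the brequinar library and 41.7 in the vehicle library. It was 6.08 times the next gene, C1qb, with brequinar and 32.5 times with vehicle. The C1q genes followed, C1qb at 9.20 with brequinar and 1.28 with vehicle, C1qa at 7.85 and 0.952, and C1qc at 4.74 and 0.492, each pair in that order of libraries. The counting intervals of C1qb and C1qa overlapped in both libraries. Below them in the brequinar library came Mrc1 (1.57), Cd163 (1.09) and Spic (0.818), each apart from the next, then Timd4 (0.495), Mertk (0.333) and Siglec1 (0.322), whose neighbours overlapped. In the vehicle library each of the 6 genes from Mrc1 (0.102) down to Siglec1 (0.0509) overlapped the next in order. The intervals thus did not set neighbours apart there, which does not make the ends of that order equal. Merged exons count every annotated exon, and with the longest transcript the length-scaled level of Vcam1 was 121 with brequinar and 90.4 with vehicle.

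**Figure D4:**
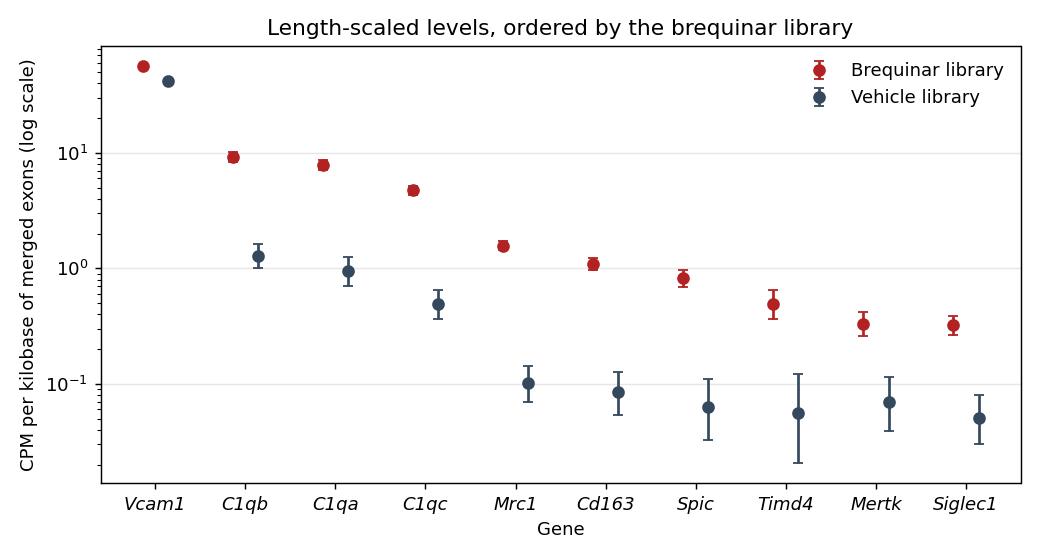
Length-scaled level of each gene, in CPM per kilobase of merged exons on a log axis, in the brequinar library (red) and the vehicle library (dark) with exact 95% counting intervals, ordered by the brequinar library. Vcam1 leads at 55.9 and 41.7, the C1q genes follow, and the other genes lie at or below 1.57.

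Other genes of resident macrophages were divided between some that differed like the 9 scarce members and some that did not. Of 24 listed, 12 averaged 1 CPM or more, of which 6 were at least 2-fold higher, 1 was lower and 5 lay within 2-fold, beside 6.45% higher and 4.40% lower over all 11504 genes. Fcna, which encodes a ficolin of marrow and spleen macrophages, stood at 10.6 CPM with brequinar and 0.788 CPM with vehicle, 13.5-fold higher (interval 9.71 to 19.2). Treml4, a receptor of splenic macrophages, stood at 3.01 CPM with brequinar and 0.243 CPM with vehicle, and Cd5l, a secreted macrophage survival protein, at 8.91 and 1.09 CPM in the same order. These 3 lay between 8.17- and 13.5-fold, within the range of the 9 scarce members. Apoe, Sdc3 and Il18bp were also higher, by 3.88- to 4.94-fold. The single lower gene was Stab1, a scavenger receptor (2.41 CPM with brequinar, 6.08 CPM with vehicle).

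Broad macrophage genes were not among those called. Adgre1, which encodes F4/80, stood at 225 CPM with brequinar and 221 CPM with vehicle, a ratio of 1.02 (interval 0.992 to 1.05). Cd68, a lysosomal protein of phagocytes, stood at 26.3 CPM with brequinar and 24.7 CPM with vehicle. Csf1r, the receptor for macrophage colony-stimulating factor, stood at 76.0 CPM with brequinar and 56.2 CPM with vehicle. Msr1 (1.61 and 1.19 CPM) and Hpgd, a prostaglandin-degrading enzyme (1812 and 926 CPM, in the same order), completed the 5 within 2-fold. Adgre1 and Csf1r, like Vcam1, were thus abundant in both libraries and close between them. Among the 12 genes below the filter, chosen here after their values were seen, Vsig4, the complement receptor of tissue macrophages, had 15 counts with brequinar and 0 with vehicle, at least 5.33-fold higher against a floor of 3 counts in the vehicle library. Stab2 had 75 and 3 counts in the same order, a ratio of 26.6 (interval 8.77 to 132), and Folr2 had no count in either.

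Of 23 listed receptors, ligands and other genes for the uptake of dying cells, 16 passed the filter, of which 3 were higher, 2 were lower and 11 lay within 2-fold, with a median log2 ratio of 0.33. Over all 11504 genes 89.2% lay within 2-fold. Axl, the receptor kinase related to Mertk, stood at 18.3 CPM with brequinar and 1.84 CPM with vehicle, 9.93-fold higher (interval 7.99 to 12.5). Per length, Axl made 91.4% of the summed level of Axl, Mertk and Tyro3 in the brequinar library and 82.1% in the vehicle library, and Mertk 8.38% and 15.7%. Gas6, a ligand that both share, was scarce, with 14 counts in the brequinar library and 38 in the vehicle library. Cd36, a scavenger receptor (2.52 CPM with brequinar, 0.384 CPM with vehicle), and Dock1, part of the engulfment machinery (19.7 and 9.42 CPM in the same order), were the other higher genes. Dnase2a, which digests the DNA of engulfed nuclei (54.4 CPM with brequinar, 116 CPM with vehicle), and Mfge8, a bridge to dying cells (1.18 and 2.55 CPM in the same order), were the lower ones. Calr (1213 CPM with brequinar, 2300.4 CPM with vehicle) and Cd47, a signal against engulfment (694 and 488 CPM in the same order), had the highest CPM of the list.

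Among the haem, iron and transcription factor genes, 23 of 26 passed the filter, with 6 higher (6.45% of all genes), 1 lower (4.40% of all genes), 16 within 2-fold and a median log2 ratio of 0.34. Hmox1, the haem-degrading enzyme, stood at 54.3 CPM with brequinar and 6.37 CPM with vehicle, 8.53-fold higher (interval 7.59 to 9.62). Slc40a1, the iron exporter ferroportin, stood at 134 CPM with brequinar and 42.0 CPM with vehicle, 3.20-fold higher (interval 3.04 to 3.36). Slc11a1, a metal transporter of phagosomes, stood at 12.1 CPM with brequinar and 1.33 CPM with vehicle. The macrophage factors Nr1h3 (2.26 CPM with brequinar, 0.768 CPM with vehicle) and Maf (2.63 and 0.950 CPM in the same order) were also higher. Irf8 was the single lower gene (13.8 CPM with brequinar, 51.5 CPM with vehicle). Hp, which encodes haptoglobin (1717 CPM with brequinar, 895 CPM with vehicle), and the ferritin gene Ftl1 (1411 and 1116 CPM in the same order) lay within 2-fold.

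Complement genes other than C1q were higher in 9 of the 12 that passed the filter, of 25 listed, and none of the 12 was lower. Over all genes 6.45% were higher and 4.40% lower. The median log2 ratio was 1.63 over those 12 and 0.19 over all 25. Without the filter the whole counting interval lay above 2-fold in 9 of the 25 and below it in 2. Those 2 were C2 (11 counts with brequinar, 59 with vehicle) and Serping1 (1 and 15 in the same order). Over 21287 genes the shares were 4.14% and 2.62%. C1ra, the protease that C1q activates, stood at 1.89 CPM with brequinar and 0.404 CPM with vehicle (88 and 20 counts in the same order), while C1s1, its partner, had 4 counts in each. C3 stood at 2086 CPM with brequinar and 643 CPM with vehicle, and C5ar1, the C5a receptor, at 127 and 5.58 CPM in the same order. C5ar2 (9.82 and 1.62 CPM) and Itgam (1234 and 399 CPM) were also higher with brequinar.

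Of 13 listed adhesion partners, 11 passed the filter, with 1 higher, 1 lower and 9 within 2-fold, beside 89.2% within 2-fold over all genes. The integrin chains that bind VCAM-1 stood at 186 CPM with brequinar and 268 CPM with vehicle for Itga4, and at 310 CPM with brequinar and 295 CPM with vehicle for Itgb1. Itgad, an integrin chain of tissue macrophages, was the higher gene, at 5.27 CPM with brequinar and 0.505 CPM with vehicle (10.4-fold, interval 6.91 to 16.4). Spn, a sialylated partner of CD169, stood at 586 CPM with brequinar and 559 CPM with vehicle, and Ptprc at 538 and 286 CPM in the same order.

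**Figure D5:**
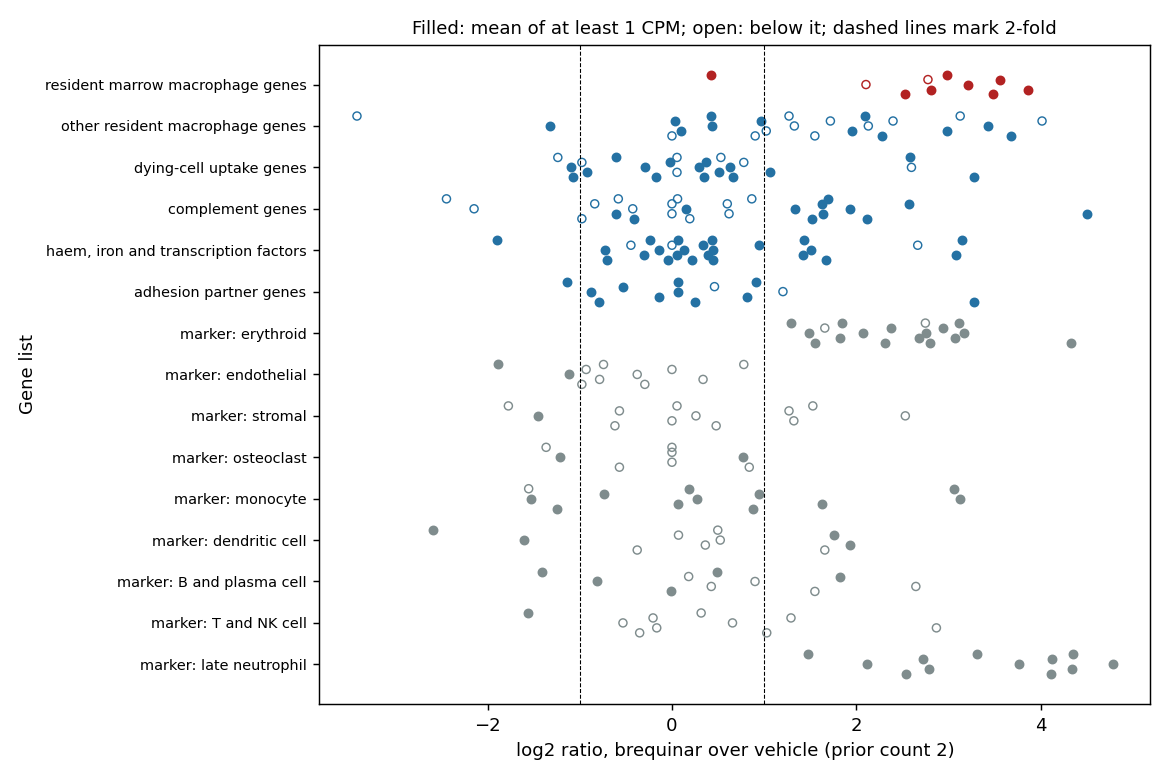
Log2 ratio of brequinar over vehicle for each gene of the resident marrow macrophage list (red), of 5 lists of related genes (blue) and of 9 lists of other cell types (grey). Filled points average 1 CPM or more, open points lie below that, and the dashed lines mark 2-fold.

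Markers of other cells also differed between the libraries. Over all 11504 genes that passed the filter, 6.45% were higher and 4.40% lower. Of 18 erythroid markers 16 passed the filter, all of them at least 2-fold higher, and the list summed to 293 CPM with brequinar and 82.6 CPM with vehicle, led by the globin gene Hbb-bs (110 and 39.4 CPM in that order). All 12 late neutrophil markers were higher, with sums of 32902 CPM with brequinar and 1958 CPM with vehicle. Of 11 monocyte markers that passed, 3 were higher (Cd300e, Ace and Itgam) and 2 lower (Ms4a6c and Fn1), while Ly6c2 stood at 831 CPM with brequinar and 733 CPM with vehicle. The part of these cells in the values of the macrophage genes was not tested. Vcam1 is also made by endothelial and stromal cells. Of the endothelial markers Pecam1 stood at 6.76 CPM with brequinar and 25.1 CPM with vehicle and Eng at 3.64 and 7.96 CPM in the same order, while Cdh5 had 5 counts with brequinar and 7 with vehicle and Robo4 had none. Of the stromal markers Pdgfrb stood at 2.50 CPM with brequinar and 6.93 CPM with vehicle and Cxcl12 at 0.775 and 1.21 CPM in the same order, while Lum had no count. Lepr, also stromal, had 31 counts with brequinar and 4 with vehicle. Without the filter the whole counting interval lay above 2-fold in 1 of the 12 stromal genes, Lepr, and below it in 1, Pdgfrb. Over 21287 genes the shares were 4.14% and 2.62%. Pdgfrb held 116 of the 276 stromal counts with brequinar and 343 of 456 with vehicle. The lists summed to 11.7 CPM with brequinar against 35.1 CPM with vehicle for 11 endothelial genes and to 5.94 against 9.22 CPM for 12 stromal genes, and their part in the Vcam1 level was not tested. The osteoclast genes Calcr, Ocstamp and Dcstamp had no count, Acp5 stood at 6.70 CPM with brequinar and 15.6 CPM with vehicle, and Nfatc1 at 60.3 and 35.3 CPM in the same order. Dendritic, B and T cell lists summed to 8.18, 22.0 and 10.7 CPM with brequinar, against 8.97, 35.1 and 23.4 CPM with vehicle. Cd79b held 458 of 1023 B list counts with brequinar and 1296 of 1735 with vehicle, and Nkg7 346 of 496 and 1091 of 1156 T list counts. Without the filter the whole counting interval lay above 2-fold in 2, 2 and 1 genes of these lists. It lay below in 2, 1 and 1, beside 4.14% above and 2.62% below over 21287 genes. The T list gene above was Cd4 (74 counts with brequinar, 9 with vehicle).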

How the data were processed

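Per the labels' protocols, poly(A) RNA was made into strand-preserving libraries and read as paired ends of 101 bases. The submitters' processing notes name STAR 2.4.2a, Picard 1.99 and 2.2.4 and build mm10. What program counted the reads, with which strand setting and on which annotation, is not given in the sources used here. Values as deposited are whole-number read counts per gene, with no normalisation. The 4 closing lines that name no gene held 20.2% of reads in the brequinar library and 21.6% in the vehicle library and were left out. Symbols came from a GENCODE table (44585 identifiers matched), and positions and exon lengths from GENCODE M21 (GRCm38, the assembly of mm10).

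TMM scaling in edgeR 4.0.16 under R 4.3.3 gave factors of 0.969 for brequinar and 1.03 for vehicle. Log2 ratios used a prior count of 2, and a call needed a 2-fold ratio and a mean of at least 1 CPM. Fold values are ratios of CPM without the prior count. Intervals of ratios are Clopper-Pearson intervals conditional on the summed count, those of levels are exact Poisson intervals, and those of C1q shares are Clopper-Pearson intervals with the ratio of the other chains held fixed. No test between treatments was possible with 1 library per group. The same code was tested on simulated counts. Alternatives were scaling by total counts, by the upper quartile or by the size factors of DESeq2 1.42.0, and other filters, prior counts and thresholds. Figures used Python 3.11.15 and matplotlib 3.10.9.

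The members, the lists and the alternatives were chosen with earlier results of these data known. Named genes were all members, those of each related list with the 3 largest absolute ratios or the 2 highest means, those of each marker list with the largest ratio or the 2 highest means (in part given as list sums), and a fixed set of Adgre1, Csf1r, Cd68, Hmox1, Slc40a1, Gas6, Axl, Itga4, Itgb1 and Hp. Genes that complete a count of 5 or fewer, and other genes named outside this rule, were chosen after their values were seen. Some genes counted in the lists are not reported here by name.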

Additional observations from a re-analysis of the deposited data

How the results depend on the processing

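No paired analysis was possible because each treatment has 1 library, and no library could be left out. With total counts in place of TMM the 10 genes summed to 530.2 CPM in the brequinar library and 387 CPM in the vehicle library. With TMM but without Vcam1, an alternative chosen after seeing the data, the sums were 51.2 and 5.48 CPM in the same order. No member changed direction under 3 other scalings or prior counts of 0.5 and 5. Vcam1 ranged from 0.33 to 0.42 and Timd4 from 2.39 to 3.04 on the log2 scale.

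With a mean of at least 5 CPM, 4 members were tested and 3 called. Of 9483 genes tested then, 457 were higher and 230 lower, and 92.8% lay within 2-fold. Without a filter 2470 (11.6%) and 2074 (9.74%) of 21287 genes were called higher and lower. Of 11504 genes, 258 were higher and 82 lower with 4-fold, and 288 (2.50%) were lower with the whole counting interval beyond 2-fold. Without a filter the 24 other resident macrophage genes had 15 higher and 2 lower. The 25 complement genes then had 9 higher and 2 lower, and the 13 adhesion partners 2 higher and 1 lower. With 5 CPM the lower count was 0 among other resident macrophage genes and 1 among dying-cell uptake genes, and the higher count was 3 among haem, iron and transcription factor genes and 0 among adhesion partners. With 4-fold, complement had 3 higher, haem, iron and transcription factor genes 2 higher and 0 lower, and the other resident macrophage, dying-cell uptake and adhesion lists 0 lower. With the whole interval beyond 2-fold, 1 dying-cell uptake gene was lower. Other filters and thresholds change which genes can be called by their construction.

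With the longest transcript the brequinar shares of C1qa, C1qb and C1qc were 31.8%, 37.3% and 30.9%, and the vehicle share of C1qc was 26.1%. Without length scaling they were 29.9%, 36.6% and 33.5%, and 28.5%. Low counts in the vehicle library, from 6 to 69 for the scarce members, limit each ratio.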
